A study of Mus musculus with 24 samples.

Results

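The mitochondrial ribosomal protein genes were taken as all genes of the array whose symbol starts with Mrpl or Mrps followed by a number. There were 76 of them among 34844 genes, 47 named Mrpl and 29 named Mrps, and the array held 106 probes for them. Of these genes, 50 had 1 probe and 26 had more, and each gene is given here by the probe with the highest mean over the arrays. A spot counts as well above background where the scanner program marked it so. In the tests, 74 of the 76 genes entered, because Mrpl44 and Mrps24 were not well above background on every array of any group. On all 24 arrays, 59 genes were well above background.

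Each of the 24 samples was hybridised to 1 single-colour array and held amplified cDNA of mouse cells isolated by flow cytometry. The wt groups are thymocytes of mice heterozygous for Foxn1, the transcription factor that thymic epithelium needs to attract and support progenitors. They comprise DN3, the third stage before CD4 and CD8 appear (n = 3), DP, which carry both (n = 3), SP4, with CD4 alone (n = 3), and SP8, with CD8 alone (n = 3). The tg groups come from a transgenic thymus that lacks Foxn1: DP thymocytes (n = 4) and B cells without surface IgM, called tg B here (n = 2). Which transgenes it carries, the promoter behind them, the strain and the age are not stated in those labels. The FL groups are B cells of wild-type fetal liver, either without surface IgM, FL IgM- (n = 3), or with it, FL IgM+ (n = 3). For SP4 the title and a cell type label differ, since the label lists SP8 too, and the title was followed. Samples keep the numbers of their titles; some share one (3 and 3A, and 6, 6A and 6B), and the labels do not say that replicates came from separate animals. The spread behind each p-value is thus that of the samples at hand and may be technical.

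The mitochondrial ribosome translates the few proteins that mitochondrial DNA encodes, which are all core subunits of the respiratory chain and the ATP synthase. Its RNA comes from mitochondrial DNA, while its proteins are encoded in the nucleus, made in the cytosol and imported. Proteins of the large subunit, which forms the peptide bond, are named Mrpl, and those of the small subunit, which reads the messenger RNA, are named Mrps. A few names mislead: Mrps18a and Mrps30 encode proteins of the large subunit, and the product of Mrps36 is now known as a component of the 2-oxoglutarate dehydrogenase complex. Lymphocyte progenitors divide in bursts, at the step from DN3 to DP and again among B cell precursors, and dividing lymphocytes are known to build up mitochondrial translation.

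A level is the log2 signal of a gene with the 75th percentile of its array subtracted, given with the SD, and differences are on the same log2 scale with the SE of the fit. The brightness of a probe depends on the probe, so levels were compared between samples and not between genes. Signal was well above background for between 80.6% (tg B 23) and 96.7% of all probes of an array. The markers of the labels separated the groups only in part. Tcf7, a T cell factor, had a mean of -5.32 in tg B, -4.23 in FL IgM- and -5.32 in FL IgM+, and means between -2.38 and 0.79 in the thymocyte groups. Cd4 lay between 3.40 and 3.79 in all 8 groups. Cd8a was at -0.95 in SP4 and -0.96 in SP8, and Cd8b1 at -2.14 in SP4 and -3.56 in SP8. The Cd8 probes thus did not separate SP4 from SP8 in the way the titles say. The B cell markers of tg B went both ways. Cd79a, part of the B cell receptor, was lowest there (-3.29, against -2.38 to -1.15 in thymocytes and 0.34 in FL IgM-), as was Blnk (-1.12). Pax5 (1.74) and Igll1 (-0.46) had their highest means in tg B. Markers of other cell types differed within their lists. The myeloid marker Itgam was bright in every group (7.34 to 7.88), while Mpo lay between -3.4 and -1.8. Hbb-b1 of red cells was dim in all (-7.43 to -5.35), while Hba-a1 lay between -0.18 and 0.53. Afp of hepatocytes was dim in all (-7.12 to -5.33), while Trf lay between -0.13 and 0.39. These levels do not tell whether such cells were present, since brightness depends on the probe.

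The mitoribosomal genes as a group lay at similar levels in most samples, and 3 arrays stood apart. The median over the 76 genes was between -1.39 and -0.95 on 21 arrays. It was -1.63 on SP4 12, -1.90 on FL IgM+ 21 and -1.91 on tg B 23. On these arrays 72, 67 and 62 of the 76 genes were well above background, against 68 to 76 on the others. By group, the mean of the array medians was -1.25 ± 0.11 in DN3, -1.14 ± 0.09 in wt DP, -1.19 ± 0.39 in SP4 and -1.12 ± 0.07 in SP8 (SD, n = 3 each). The tg DP mean was -1.27 ± 0.10 (n = 4) and the tg B mean -1.65 ± 0.36 (n = 2), and it was -1.25 ± 0.03 in FL IgM- and -1.40 ± 0.44 in FL IgM+ (n = 3 each). The wide SDs of SP4 and FL IgM+ each come from 1 array, and that of tg B is the gap between its 2 arrays. The median over all genes tested was also lowest on tg B 23, at -1.39, and next lowest on FL IgM+ 21, at -1.20, while SP4 12 had -1.07 and the median array -1.04. The part of amplification, RNA quality or cell number in these 3 arrays was not tested. In samples of sorted cells, fewer cells of a type and less RNA per cell cannot be told apart.

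**Figure D1:**
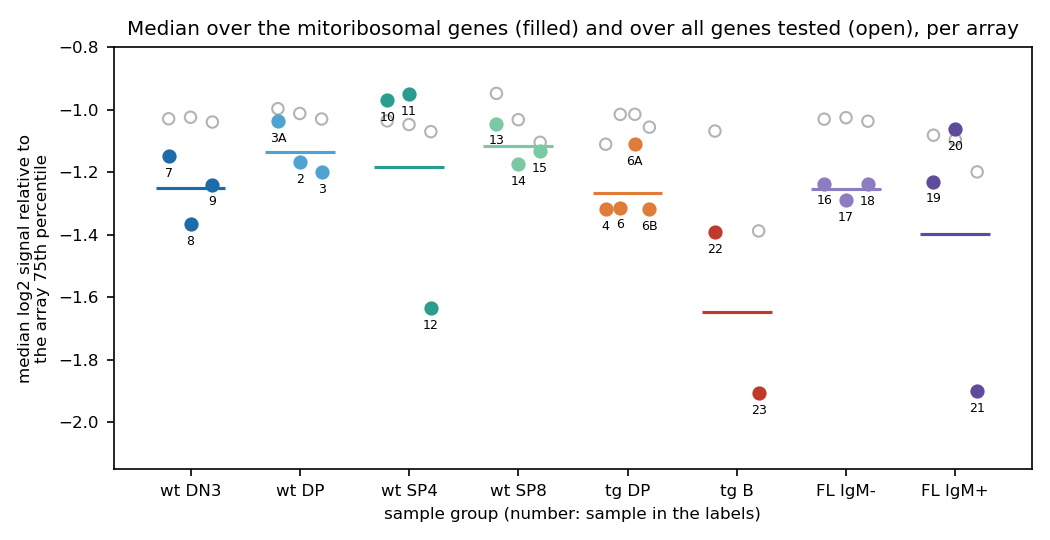
Median level (log2, 75th percentile of the array at 0) over the 76 mitoribosomal genes (filled circles, numbered by sample, bar at the group mean) and over all genes tested (open circles) on each of 24 arrays. SP4 12, FL IgM+ 21 and tg B 23 lie below -1.60, and the other 21 arrays lie between -1.39 and -0.95.

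No mitoribosomal gene differed across the 8 groups in the test over all groups at once. By limma's moderated F-test with Benjamini-Hochberg adjustment, 0 of 74 passed an adjusted p of 0.05, where 0.211% of all 33592 genes tested did. At an unadjusted p of 0.05, 5 of 74 passed, which is 6.76%, where 13.7% of all genes did. The 5 were Mrps33, Mrpl35, Mrps11, Mrps22 and Mrps18c. The smallest adjusted p, 0.0750, belonged to Mrps33, a small-subunit protein without a bacterial counterpart, and the next, 0.109, to Mrpl35, a large-subunit protein that bacteria also have. The median F was 1.16 over the 74 genes and 1.23 over all genes. Leaving out tg B 22 leaves tg B 23 alone to stand for its group, so calls of that fit are not given.

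Mrps33 was lowest in tg B and highest in SP8. Its level was -2.35 and -4.81 in tg B, and -0.84, -2.27 and -2.82 in DN3. In wt DP it was -0.95, -1.30 and -0.35, and in tg DP -0.55, -0.56, -0.93 and -0.44. In SP4 it was -2.28, -2.06 and -1.68, and in SP8 0.17, -0.09 and -0.50. FL IgM- gave -1.39, -1.58 and -0.95, and FL IgM+ gave -0.70, -1.01 and -1.75. From high to low, the group means ran SP8 (-0.14 ± 0.34), tg DP (-0.62 ± 0.21), wt DP (-0.87 ± 0.48), FL IgM+ (-1.15 ± 0.54), FL IgM- (-1.31 ± 0.32), DN3 (-1.98 ± 1.02), SP4 (-2.01 ± 0.31) and tg B (-3.58 ± 1.74). Of the neighbours in this order, only SP4 and tg B had no overlap between their samples.

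Mrpl35 was likewise lowest in tg B, at -3.36 and -3.89, and highest in SP8, at -0.97, -2.02 and -0.30. FL IgM- samples were close to SP8, at -1.68, -0.72 and -1.14, while FL IgM+ samples were at -2.28, -2.81 and -3.89. The wt DN3, DP and SP4 samples all lay between -2.97 and -1.85, and tg DP samples between -2.83 and -1.51. Mrps11, a small-subunit protein with a bacterial counterpart, had its highest mean in tg B, where the samples were far apart, at -0.03 and 1.60, and all other samples lay between -1.09 and 0.02. Mrps14, another small-subunit protein that bacteria have, had its lowest means in tg B (-1.96 ± 0.55) and FL IgM+ (-1.60 ± 0.43), and its other group means lay between -1.09 and -0.75.

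**Figure D2:**
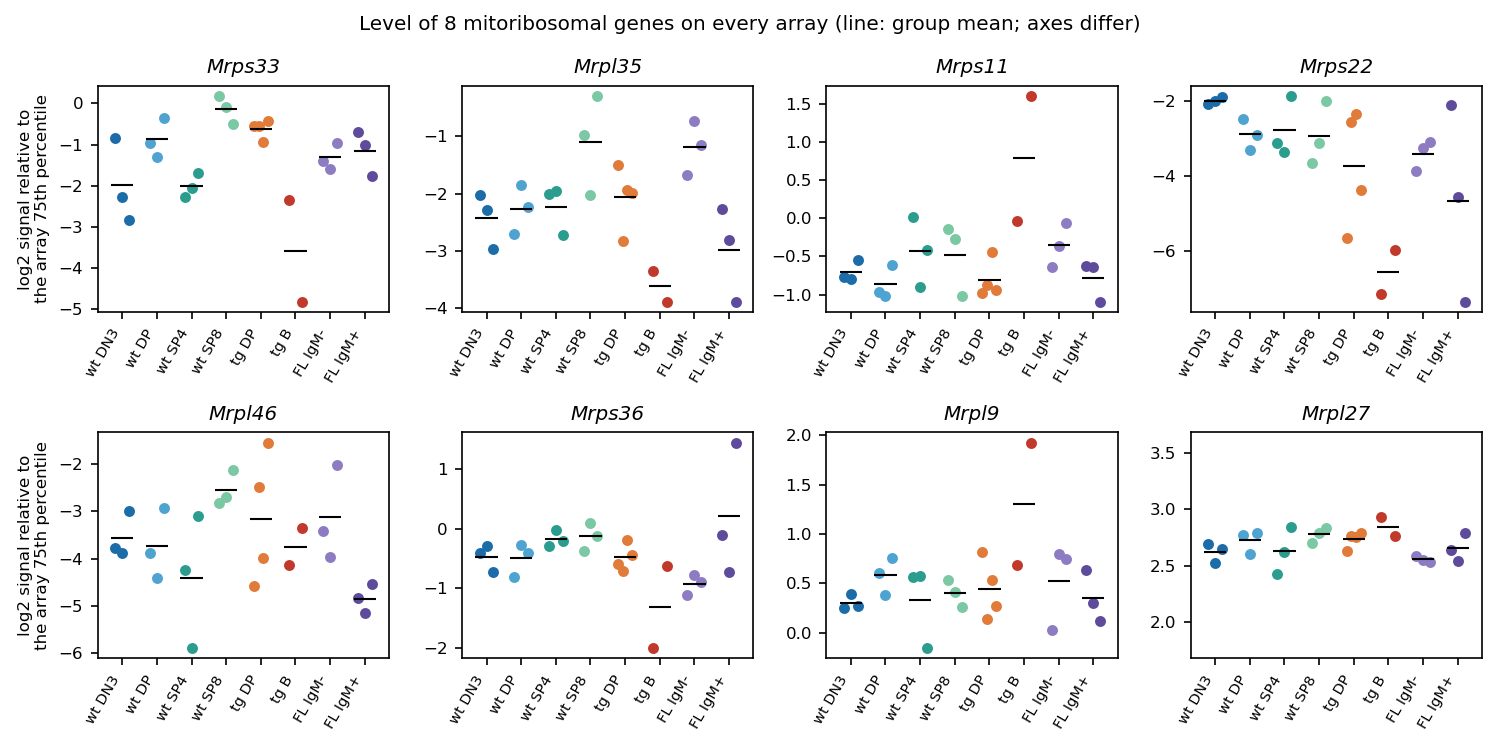
Level (log2, 75th percentile of the array at 0) of 8 mitoribosomal genes on every array, by sample group (points: samples, line: group mean). Mrps33 and Mrpl35 are lowest in tg B, Mrps22 is low in tg B and in FL IgM+ 21, Mrps11 and Mrpl9 are high in tg B 23, and Mrpl27 stays between 2.43 and 2.93 in all samples.

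The comparison of tg B with FL IgM- asks how B cell precursors in a transgenic thymus without Foxn1 differ from those of fetal liver. Organ, Foxn1 and transgenes differ together here, so their parts cannot be told apart. Here 55 of 74 mitoribosomal genes had the lower mean in tg B and 19 (25.7%) the higher, where 36.7% of all genes tested were higher; the difference between these shares was not tested. The median difference was -0.40 over the 74 genes and -0.21 over all genes, and without tg B 23 it was -0.22 and -0.11. None passed the adjusted p of 0.05 in either direction, where 0.0179% of all genes were called higher and 0.125% lower. At an unadjusted p of 0.05, 2 were higher and 9 lower, where 5.35% and 11.8% of all genes were. In 26 of the 74 genes (35.1%) all tg B samples lay below all FL IgM- samples, where 24.0% of all genes showed this, and in 5 (6.76%) they lay above, where 9.05% of all genes did.

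Mrpl35 fell furthest relative to its error, by 2.44 ± 0.52 on the log2 scale (5.44-fold, adjusted p = 0.0688), and its groups did not overlap. With normexp background correction and quantile scaling the difference was -1.33. It was -2.71 without tg B 22 (adjusted p = 0.0110) and -2.18 without tg B 23 (adjusted p = 0.436). Leaving out FL IgM+ 21, an array outside this comparison that enters the shared spread, gave an adjusted p of 0.0442 at the same difference. Whether Mrpl35 was called thus depended on a single array. Mrps33 was -2.27 ± 0.58 (adjusted p = 0.109), and its groups did not overlap either; without tg B 23 the difference was -1.05, and with normexp -1.10. On the higher side, Mrps11 differed by 1.14 ± 0.38 (adjusted p = 0.169) and by 0.32 without tg B 23. Mrpl9, a large-subunit protein that bacteria also have, was 0.69 and 1.93 in tg B and 0.03, 0.80 and 0.75 in FL IgM-, so the groups overlapped. Its difference was 0.78 ± 0.33 (adjusted p = 0.240), and 0.16 without tg B 23.

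Without tg B 22 or tg B 23, a single sample stands for tg B, so calls of those fits are not given. Without tg B 22, the differences included -3.5 for Mrps33, -3.2 for Mrpl34, 3.6 for Mrpl39 and 2.0 for Mrps11. These differences rest on tg B 23, where the median signal before scaling was 125, while the other arrays had 208 to 314. Mrps22, a small-subunit protein without a bacterial counterpart, was not well above background in either tg B sample (-7.17 and -5.97) and lay at -3.88, -3.24 and -3.08 in FL IgM-. Measured against the lowest signal that counted as well above background, it was at least 3.70-fold lower in tg B (adjusted p = 0.179), and Mrpl3, of the large subunit, at least 1.74-fold lower (adjusted p = 0.495).

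The corresponding comparison in thymocytes is tg DP against wt DP. It sets the loss of Foxn1 and the transgenes together against the heterozygous thymus, so their parts cannot be told apart. The mitoribosomal genes lay close to zero, with 34 higher, 40 lower and a median difference of -0.05, against -0.07 over all genes. None passed the adjusted p of 0.05, and neither did any other gene (0% of all, higher or lower). At an unadjusted p of 0.05, 0 were higher and 3 lower, where 1.08% and 2.23% of all genes were. Samples did not overlap for 0 higher and 4 lower genes (5.41%), where 2.55% and 4.38% of all genes showed this. Mrps5, of the small subunit, gave the lowest statistic at -3.97, -0.78 and -3.30 in wt DP and -7.60, -6.97, -3.71 and -7.09 in tg DP. It was well above background in all 3 wt and in 1 of 4 tg samples, tg DP 6A, which lay within the wt range. The fitted difference of -3.66 ± 1.29 (adjusted p = 0.9999) thus rests on 3 tg values that are not measured levels, and with normexp it was -1.33. Mrpl37 was -1.17 ± 0.50 (-0.77 with normexp), Mrpl17 0.55 ± 0.29 and Mrpl53 0.43 ± 0.27 (adjusted p = 0.9999 each), all from the large subunit, and their groups overlapped. Within slide 2, which holds the 3 wt and 3 of the tg samples, the median over the 74 genes was 0.02.

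The change in B cells and the change in DP cells were set against each other in the same fit, a test added after the data were seen. By limma, 0 of the 74 genes passed an adjusted p of 0.05, where 2 of all 33592 genes tested did. The smallest adjusted p among the 74, 0.303, belonged to Mrpl35.

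**Figure D3:**
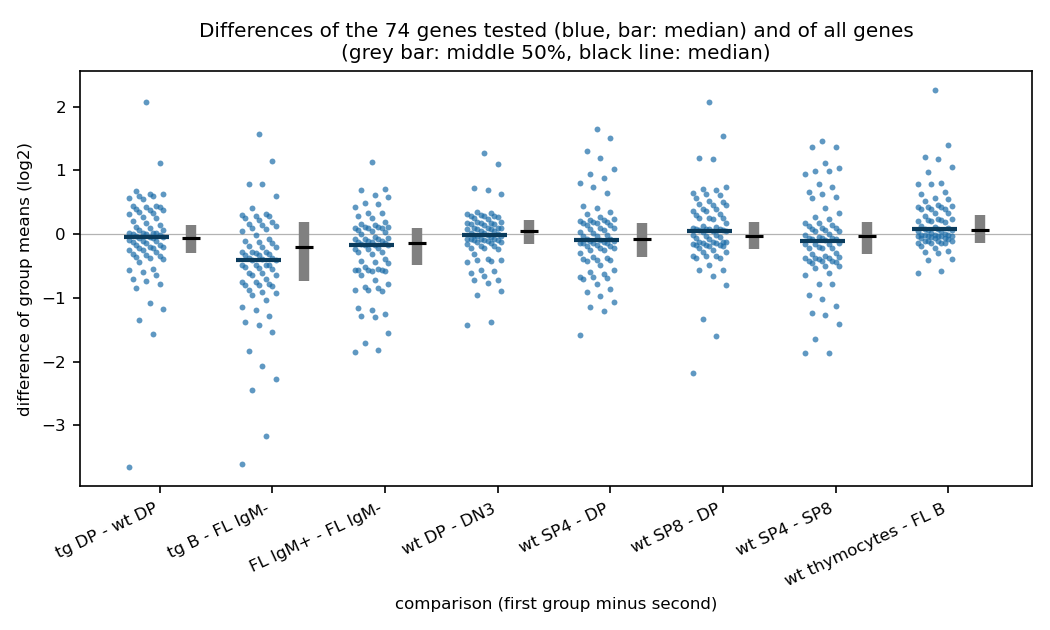
Differences of group means on the log2 scale for the 74 mitoribosomal genes tested (blue points, dark bar at their median) beside the middle 50% (grey bar) and median (black line) of all genes tested, for 8 comparisons. The median of the mitoribosomal genes is lowest for tg B minus FL IgM-, at -0.40, and lies between -0.17 and 0.08 in the other comparisons.

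Between FL IgM+ and FL IgM- cells, a step at which B cells first show their receptor, 24 mitoribosomal genes were higher and 50 lower with IgM. The median difference was -0.17, against -0.15 over all genes. None passed the adjusted p of 0.05, nor did any other gene (0% of all, higher or lower). At an unadjusted p of 0.05, 1 was higher and 4 lower, where 1.02% and 6.08% of all genes were. No overlap was seen for 3 higher (4.05%) and 10 lower genes (13.5%), where 2.03% and 11.5% of all genes showed this. Mrpl35 was -1.81 ± 0.47 (3.51-fold lower with IgM, adjusted p = 0.406; -1.12 with normexp), and every FL IgM+ sample lay below every FL IgM- sample. Mrpl46, of the large subunit, was -4.83, -5.16 and -4.54 with IgM and -3.41, -3.97 and -2.01 without (difference -1.71 ± 0.73, adjusted p = 0.649). It was -1.08 with quantile scaling and -0.50 with normexp. Mrps36 was higher with IgM by 1.13 ± 0.40 (adjusted p = 0.587), at -0.10, -0.72 and 1.44 against -1.11, -0.78 and -0.89, so FL IgM+ 21 carried most of it. Mrpl12, which sits on the stalk that recruits translation factors and is also known to bind the mitochondrial RNA polymerase, was 1.39, 0.58 and 0.95 with IgM and 0.19, 0.24 and 0.37 without (0.71 ± 0.52, adjusted p = 0.813). Mrps5 was not well above background in any FL IgM+ sample and was so in 1 of 3 FL IgM- samples, so no fold is given.

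From DN3 to DP, the genes scattered evenly, 35 higher and 39 lower in DP. The median difference was -0.02, against 0.04 over all genes. The adjusted p of 0.05 was passed by none of them, nor by any other gene (0% of all, higher or lower). Of the 74, at an unadjusted p of 0.05, 1 was higher and 0 lower, where 0.842% and 1.25% of all genes were. In DP, 4 genes lay wholly above DN3 (6.83% of all genes did) and 3 wholly below (5.25% of all). The 1 was Mrps33, at 1.10 ± 0.52 (adjusted p = 1). DN3 7 shares slide 2 with the DP samples, and against it alone the difference was -0.03; the part of the slide was not tested. Mrpl51, of the large subunit, was -0.82, -2.33 and -1.26 in DP and 0.15, -0.14 and -0.13 in DN3, without overlap (difference -1.43 ± 0.96, adjusted p = 1, and -0.79 with the slide as a block). Mrps12, part of the decoding centre, was 0.69 ± 0.51 (0.31 with the block) and Mrps15 -0.62 ± 0.42 (adjusted p = 1 each).

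In SP4 against DP, 31 genes were higher and 43 lower, with a median of -0.10 against -0.07 over all genes. Neither these nor any other gene passed the adjusted p of 0.05 (0% of all, higher or lower). With no adjustment, at a p of 0.05, 0 were higher and 3 lower, where 2.41% and 4.10% of all genes were. All SP4 samples lay above all DP samples in 5 genes, where 5.50% of all genes showed this, and below in 9, where 10.1% did. Mrps9, of the small subunit, was -0.72, -0.26 and -0.75 in SP4 and -0.06, 0.41 and 0.03 in DP. Its difference was -0.70 ± 0.22 (1.63-fold lower in SP4, adjusted p = 0.536), with no overlap. Mrps33 was -1.14 ± 0.52 (adjusted p = 0.742), and with the slide as a block -0.28. Mrpl45, which lies at the exit of the nascent chain, was 1.19 ± 0.70 (adjusted p = 0.840) and Mrps15 0.88 ± 0.42 (adjusted p = 0.767), and in none of the 3 did the groups overlap.

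In SP8 against DP, 39 genes were higher and 35 lower, with a median of 0.05 against -0.03 over all genes. By the adjusted p of 0.05 none was called, nor was any other gene (0% of all, higher or lower). Before adjustment (p of 0.05) 1 was higher and 0 lower, where 1.04% and 1.13% of all genes were. No overlap was seen for 4 higher and 4 lower genes, where 4.78% and 6.05% of all genes showed this. That 1 was Mrpl35, at 1.17 ± 0.47 (adjusted p = 0.9999), whose groups overlapped. Mrpl46 was -2.82, -2.70 and -2.12 in SP8 and -3.89, -4.41 and -2.93 in DP, without overlap (1.19 ± 0.73, adjusted p = 0.9999, and 0.63 with normexp). Mrps30 was -1.33 ± 0.77 (-0.70 with the slide as a block, -0.64 with normexp) and Mrps5 -2.19 ± 1.38 (-0.71 and -1.01), with an adjusted p of 0.9999 each. Mrps5 was well above background in 1 of 3 SP8 samples. SP4 and SP8 share no slide with DP, so these 2 comparisons cannot be made within a slide. The fit with the slide as a block ties the slides only through groups that lie on more than 1 of them. The part of the slide was not tested.

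By their titles, SP4 and SP8 are the alternative fates of DP cells. They differed from each other in no mitoribosomal gene by the adjusted test, nor in any other gene (0% of all, higher or lower). Counted at an unadjusted p of 0.05, 1 was higher in SP4 and 4 were lower, where 1.68% and 3.46% of all genes were. The samples did not overlap for 4 genes higher in SP4 and 7 lower, where 4.02% and 6.67% of all genes showed this. Of the 74, 29 were higher and 45 lower in SP4, with a median of -0.12 against -0.03 over all genes. Within slide 3, which holds SP4 10, SP4 12 and the SP8 samples, that median was -0.18. Mrps33 had the widest gap relative to its error, at -2.28, -2.06 and -1.68 in SP4 and 0.17, -0.09 and -0.50 in SP8. The difference was -1.87 ± 0.52 (3.66-fold lower in SP4, adjusted p = 0.704), the groups did not overlap, and within slide 3 it was -1.84. Mrps18c, 1 of 3 genes with an S18-type product, was -1.41 ± 0.49 (adjusted p = 0.809), without overlap, and -0.80 with normexp. Mrps15 was higher in SP4 by 0.94 ± 0.42 (adjusted p = 0.957) and Mrps28 by 0.79 ± 0.37 (adjusted p = 0.964).

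The 12 wt thymocyte and 6 FL B cell samples gave the comparison with the most arrays. Each side pools different cell stages, so its samples are not replicates of a single condition. Lineage, organ and Foxn1 genotype differ together between the sides, so their parts cannot be told apart. Here 42 of the 74 genes were higher in thymocytes and 32 lower, with a median of 0.08 against 0.06 over all genes. None passed the adjusted p of 0.05, where 0.0923% of all genes were called higher and 0.152% lower. At an unadjusted p of 0.05, 3 were higher and 0 lower, where 8.29% and 5.05% of all genes were. No gene of the 74 separated all thymocyte from all B cell samples, which 0.140% (higher) and 0.301% (lower) of all genes did. Mrps5 was -3.82 ± 2.00 in thymocytes, where 9 of 12 samples were well above background, and -6.07 ± 1.16 in FL B cells, where 1 of 6 was. The fitted difference of 2.26 ± 0.84 (adjusted p = 0.240) includes these values at background, and with normexp it was 0.82. Mrps22 was 1.40 ± 0.60 (adjusted p = 0.317), but with the slide as a block it was -3.39 ± 1.19, and with normexp 0.48. SP4 11 and FL IgM+ 19 are the only samples of both kinds on 1 slide, at -3.37 and -2.10 for this gene. Mrpl12 was lower in thymocytes, at 0.04 ± 0.68 against 0.62 ± 0.47 (difference -0.58, adjusted p = 0.453, and -0.28 with the slide as a block). Mrps10, of the small subunit, differed by -0.14 ± 0.08 (adjusted p = 0.481) and by -0.28 to -0.22 under the other scalings, with 2 thymocyte values (DN3 8 and SP4 12) missing because their spots were not uniform.

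The genes were also split by subunit. Of the 74 genes tested, 48 encode large-subunit and 25 small-subunit proteins, and Mrps36 stands apart. In tg B against FL IgM-, the median difference was -0.40 for the large and -0.41 for the small subunit. In SP4 against SP8 it was -0.19 and 0.10, with 15 of 48 and 14 of 25 genes higher in SP4. In SP4 against DP it was -0.13 and 0.10, with 17 of 48 and 13 of 25 genes higher in SP4. In FL IgM+ against FL IgM- it was -0.22 and -0.07. These are descriptions, and the differences between the subunits were not tested.

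**Figure D4:**
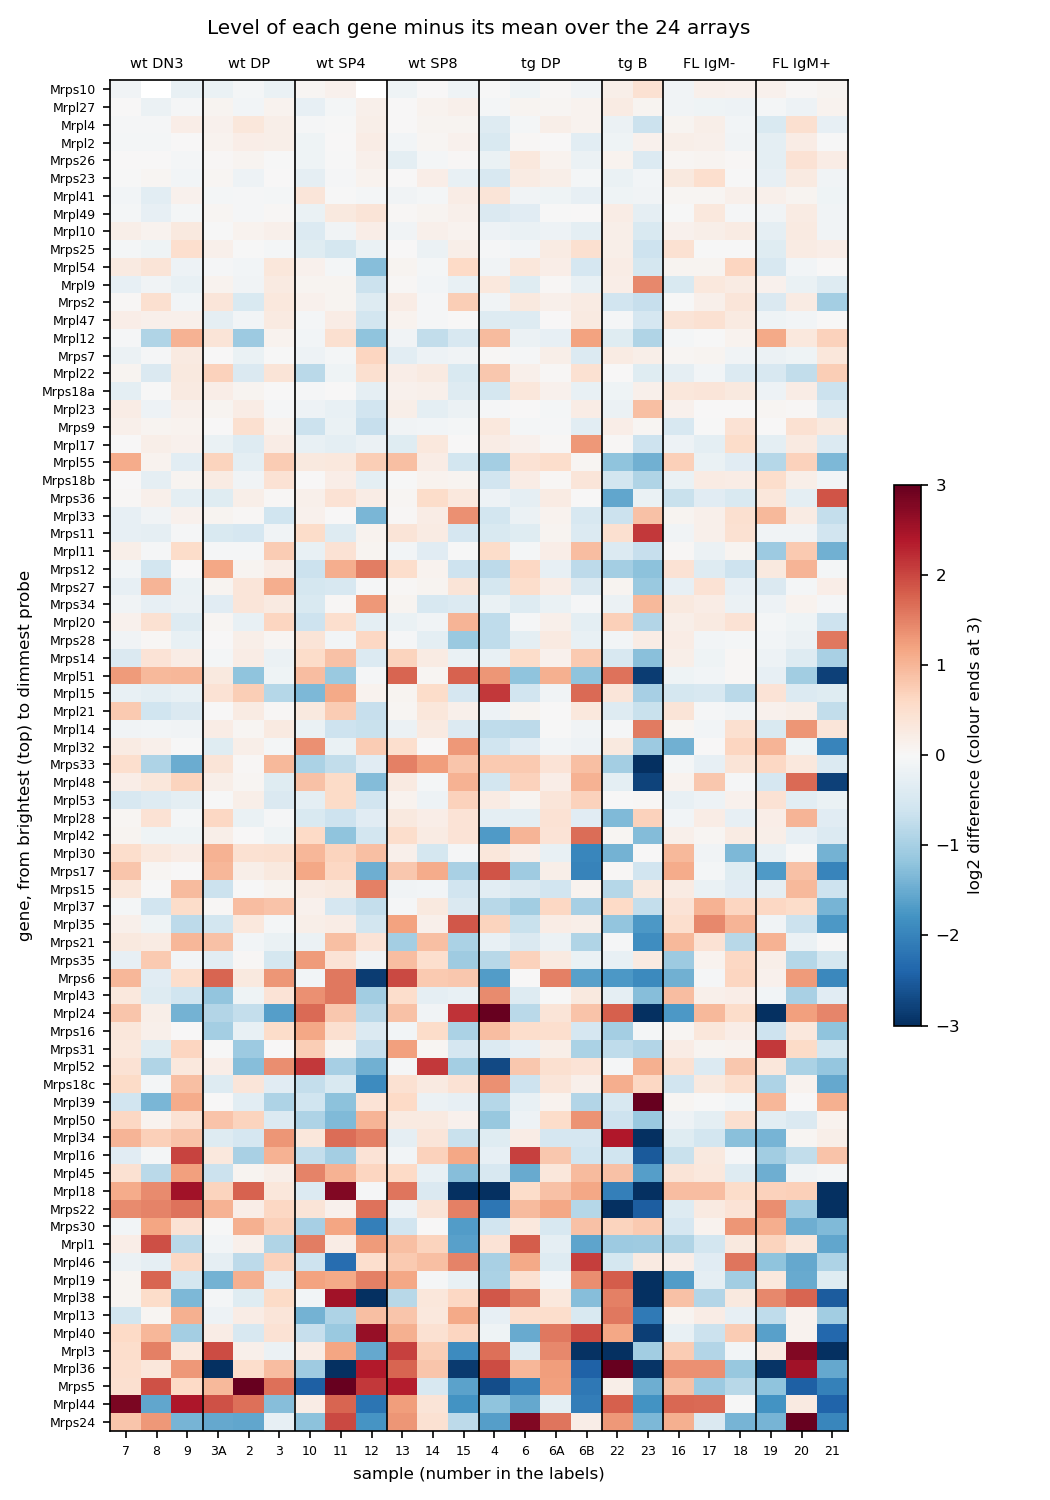
Log2 level of each of the 76 mitoribosomal genes (rows, brightest probe at the top) minus its mean over the 24 arrays (columns, by group and sample number); red is higher, blue is lower, colour ends at 3, and the missing values of Mrps10 in DN3 8 and SP4 12 are plain white. Rows near the top are pale in every sample, rows near the bottom vary from sample to sample within groups, and no group forms a block except that many rows are blue on tg B 23 and FL IgM+ 21.

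How much a gene varied over the 24 arrays followed the brightness of its probe. The SD ran from 0.124 (Mrpl27) to 2.07 (Mrpl36), with a median of 0.699 over the 76 genes and 0.523 over all genes tested. Across the 76 genes, the mean signal and the SD had a Spearman rho of -0.880, and across all genes tested one of -0.775; genes are not independent replicates. The 11197 genes with the dimmest probes included 27 mitoribosomal genes, whose median SD was 1.05, against 0.972 over all of them. The 11198 with the brightest included 20, with 0.262 against 0.279. Among genes well above background on every array, the narrowest were Mrpl27, which lies by the peptide-forming centre (SD 0.124), Mrps10 (0.159) and Mrpl41 (0.170). Mrpl27 lay between 2.43 and 2.93 in all 24 samples, and Mrpl41 between 1.14 and 1.84. The widest were Mrps6 (1.39), Mrpl51 (1.30) and Mrpl52 (1.16). Mrpl52 ran from -5.24 (tg DP 4) to -0.41 (SP8 14), and in SP4 alone it was -0.42, -3.54 and -3.98.

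Correlations between the genes were weak. Over the 2850 pairs that the 76 genes form, the median Pearson r across the 24 arrays was 0.073, and 0.048 without tg B 23. These correlations share libraries and are given as a description.

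Probes of the same gene offer a second reading of the same samples, and they often differed. There were 30 pairs of a chosen probe with another probe of its gene, in 26 genes. Their Pearson r over 24 arrays had a median of 0.224 and ran from -0.586 (Mrpl9) to 0.930 (Mrpl40). Both probes gave a difference of the same sign in 133 of 232 cases (57.3%), 29 pairs in 8 comparisons. The distance between the probes was measured on mm9, the build of the array annotation. In 3 pairs the probes started at most 8 bases apart and r was between 0.887 and 0.930. In 26 pairs they started 59 to 9780 bases apart, and r ran from -0.586 to 0.643 with a median of 0.182. The limit of 10 bases that parts them was chosen after the values were seen. The 30th pair, of Mrpl30, could not be placed, because the annotation puts 1 of its probes on chromosome 11 and the gene on chromosome 1. The first 30 bases of a close and of a distant pair show the contrast, with the bases that both probes share in capitals.
Mrpl40, chosen probe: AAGTCTACTTTCCACAGACAAGtgagtcat
Mrpl40, other probe: gagatctaAAGTCTACTTTCCACAGACAAG
Mrpl9, chosen probe: ttgatcctgtgtggttttcaacagccacaa
Mrpl9, other probe: cctagccactattctgacagttgttttatt
The Mrpl40 probes lie at chr16:18872311-18872370 and chr16:18872319-18872378 (minus strand) and share 52 of their 60 bases. The Mrpl9 probes lie at chr3:94254157-94254216 and chr3:94252112-94252171 (plus strand). Whether they lie in coding or untranslated exon sequence was not looked up, since no genome of that build was used here.

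The disagreement touches the genes described above. In tg B against FL IgM-, Mrpl9 was 0.78 ± 0.33 by its chosen probe and -1.49 ± 0.86 by the other, and Mrpl39, also of the large subunit, 1.58 ± 0.86 and -2.37 ± 0.81. Both probes of Mrps33 were lower in tg B, by -2.27 ± 0.58 and -1.48 ± 0.64. Between SP4 and SP8 the Mrps33 probes gave -1.87 ± 0.52 and -0.46 ± 0.58, and between SP4 and DP -1.14 ± 0.52 and 0.42 ± 0.58. Mrps36 in FL IgM+ against FL IgM- was 1.13 ± 0.40 and -0.76 ± 0.96. Mrps23, of the small subunit, was higher in SP8 than in DP by 0.03 ± 0.21 and 1.46 ± 0.52. In Mrpl21 the probes gave 0.02 ± 0.36 and -1.18 ± 0.75 between SP4 and DP. Both genes were named for the gap between their probes in thymocytes against FL B cells, which is not given here. Mrpl35, Mrps11, Mrps22 and Mrpl46 have 1 probe each. The RefSeq gene table lists pseudogenes named after Mrpl23, Mrpl27, Mrpl48 and Mrps36, so signals of these 4 genes are uncertain.

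**Figure D5:**
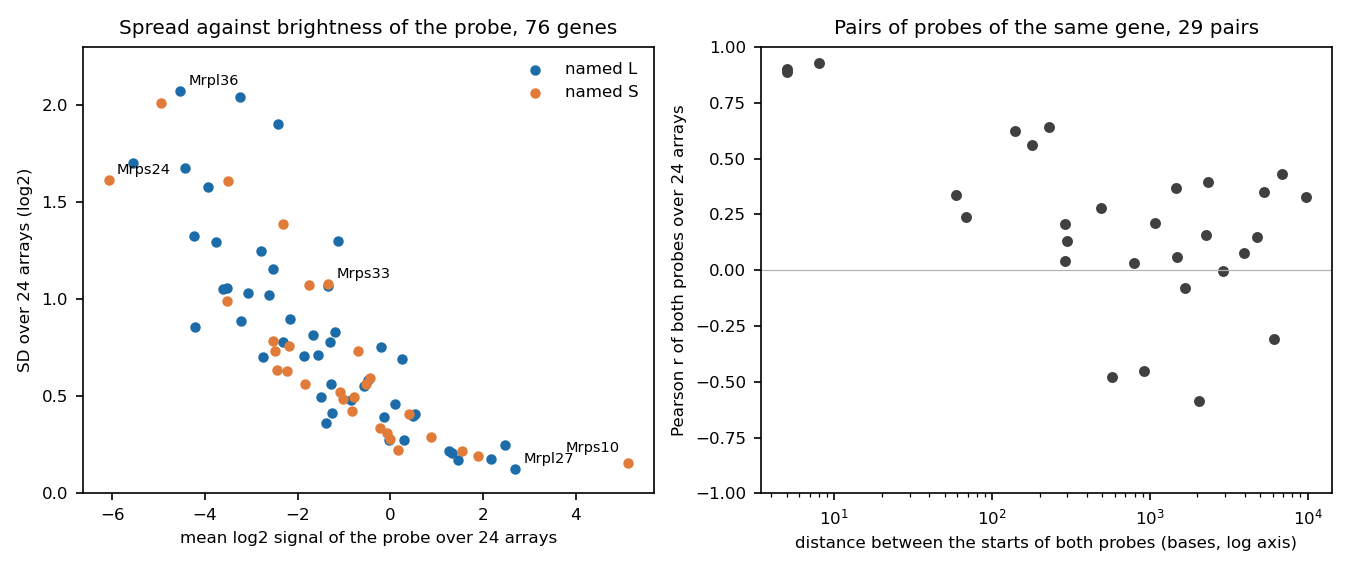
Left, SD over 24 arrays against the mean log2 signal of the probe for 76 mitoribosomal genes (blue: Mrpl, orange: Mrps). Right, Pearson r over 24 arrays of 29 pairs of probes of the same gene against the distance between their starts on a log axis. The SD lies between 0.124 and 2.07 and tends to be lower for brighter probes. The r is 0.887 or more only for the 3 pairs that start at most 8 bases apart.

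The promoters of the genes were searched for 6 motifs. The RefSeq table of promoters (GRCm38.p6, 250 bases before to 50 after the start) held 67 of the 76 genes and was compared with those of all 17492 protein-coding genes in it. Each motif was searched on both strands. The core of the site of GABP and other ETS factors, CCGGAAG, was present in 23 of 67 (34.3%), against 11.9% of all promoters. AAGATGGC, the core of a YY1 site, was present in 12 (17.9%), against 3.22%, with 8 of its 12 matches after the start. A palindromic 10-base site of NRF1 was present in 3 (4.48%), against 1.32%. The E-box CACGTG was present in 7.46%, against 7.90%, the GC box GGGCGG in 49.3%, against 46.3%, and TATAAA in 5.97%, against 13.3%. GABP and NRF1 are known as regulators of nuclear genes for mitochondrial proteins. The only overlap between matches of different motifs was that of CCGGAAG with GGGCGG in Mrpl17 and Mrps16. A match is a run of letters and not a measured site. In 3 genes, Mrps12, Mrps18a and Mrps27, both CCGGAAG and AAGATGGC were found (4.48%, against 0.595% of all promoters).

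Stretches that end at the base before the start show these matches in the strand of the gene, with the matches of the GABP core, the GC box and the NRF1 site on either strand in capitals. They belong to genes described above for their range (Mrpl51, Mrpl52), their values in tg B (Mrps22) or tg DP (Mrpl53) or their opposed probes (Mrpl9, Mrpl39).
Mrps22, chr9:98601680-98601829, minus strand: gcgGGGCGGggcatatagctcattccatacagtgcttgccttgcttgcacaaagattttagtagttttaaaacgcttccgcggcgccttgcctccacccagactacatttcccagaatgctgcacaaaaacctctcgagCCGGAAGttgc
Mrpl51, chr6:125192050-125192199, plus strand: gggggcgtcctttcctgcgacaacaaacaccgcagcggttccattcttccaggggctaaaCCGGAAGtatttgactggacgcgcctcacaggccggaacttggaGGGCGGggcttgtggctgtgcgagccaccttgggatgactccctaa
Mrpl52, chr14:54426759-54426908, plus strand: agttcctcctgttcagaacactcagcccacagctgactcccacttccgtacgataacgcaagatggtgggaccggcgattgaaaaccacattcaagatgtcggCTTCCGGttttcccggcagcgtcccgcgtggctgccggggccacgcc
Mrpl53, chr6:83108958-83109107, plus strand: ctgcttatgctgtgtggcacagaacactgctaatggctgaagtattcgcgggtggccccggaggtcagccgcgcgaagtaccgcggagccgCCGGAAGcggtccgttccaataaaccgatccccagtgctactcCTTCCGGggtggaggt
Mrpl9, chr3:94443186-94443335, plus strand: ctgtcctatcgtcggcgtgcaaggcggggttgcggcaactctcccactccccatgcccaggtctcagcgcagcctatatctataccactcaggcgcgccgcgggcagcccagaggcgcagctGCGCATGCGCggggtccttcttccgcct
Mrpl39, chr16:84735245-84735394, minus strand: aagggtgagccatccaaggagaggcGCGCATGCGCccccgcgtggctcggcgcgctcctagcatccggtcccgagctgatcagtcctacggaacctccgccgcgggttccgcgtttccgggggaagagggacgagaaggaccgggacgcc

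Many of the genes also start head to head with another gene. A protein-coding gene on the opposite strand started at most 1000 bases away in 22 of 67 (32.8%), against 7.52% of all 17492 promoters. The median distance was 144 bases. Mrps11 and Mrpl46 form such a pair with each other, with starts 42 bases apart on chromosome 7. The 41 bases between them, in the strand of Mrps11, hold 1 GC box.
Mrps11 to Mrpl46, chr7:78783090-78783130: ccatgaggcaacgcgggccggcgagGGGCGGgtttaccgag
The 2 genes nevertheless had different profiles. Mrps11 had its highest group mean in tg B (0.78 ± 1.15), while Mrpl46 had its highest in SP8 (-2.55 ± 0.38) and its lowest in FL IgM+ (-4.84 ± 0.31). Their Pearson r over the 24 arrays was 0.135. Over all 21 head-to-head pairs the median r was 0.027, between -0.379 (Mrpl41 with Pnpla7) and 0.684 (Mrpl37 with Cyb5rl), close to the median of 0.073 over pairs of mitoribosomal genes. All pairs share the same libraries.

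Genes around the mitochondrial ribosome were read from 5 lists: 8 subunits with other names, 18 translation factors, 22 assembly factors, 9 genes of mitochondrial transcription and replication and 11 nuclear regulators. Of the 68 genes, 65 passed the filter, and 1 was called in 1 of the 8 comparisons. Gtpbp10, a GTPase of large-subunit assembly, was lower in wt thymocytes (lowest 1.10, median 1.30, highest 1.59, n = 12) than in FL B cells (lowest 1.68, median 1.80, highest 1.95, n = 6), with no overlap. The difference was -0.50 ± 0.09 (1.41-fold, adjusted p = 0.0398), where 0.152% of all genes were called lower. It lost the call in 18 of 33 alternatives, with adjusted p-values between 0.0174 and 0.936, and was -0.10 with the slide as a block. The tg B samples, at 1.88 and 1.78, lay within the range of the FL B cells, and tg DP samples between 1.20 and 1.62.

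Among the other lists, all 9 genes of mitochondrial transcription and replication were lower in tg B than in FL IgM-, with a median difference of -0.92 and 0 called. Of all genes tested, 36.7% were higher in tg B, and the difference from this share was not tested. The 9 include Polrmt, the mitochondrial RNA polymerase, at -0.92 ± 0.29 (adjusted p = 0.158). The other subunits had a median of -0.63, with 2 of 8 higher, the translation factors -0.06 (8 of 16), the assembly factors -0.22 (6 of 21) and the nuclear regulators -0.19 (5 of 11), against -0.21 over all genes. In tg DP against wt DP, 9 of 11 nuclear regulators were higher, with a median of 0.45 and 0 called, where 40.5% of all genes were higher, with a median of -0.07; this difference was not tested. Gabpa, the DNA-binding subunit of GABP, was 1.04 ± 0.34 (adjusted p = 0.9999). Taco1, a translation activator of a cytochrome c oxidase subunit, was -2.62 ± 0.13 in SP8 and -7.37 ± 0.78 in SP4 (adjusted p = 0.695), where 0 of 3 samples were well above background. Ict1, a release factor built into the large subunit, was higher in wt thymocytes than in FL B cells by 0.77 ± 0.18 (adjusted p = 0.0732). With 0 of the 74 mitoribosomal genes called in any comparison, the number of arrays limits the precision: the median SE of a difference between 2 groups of 3 was 0.49 over these genes.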

How the data were processed

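The data are 24 single-colour Agilent arrays. The intensity of each spot was deposited as written by Feature Extraction 10.7.3.1, per the file headers (array design 028005, scanner G2505C, annotation build mm9), background-subtracted and detrended within each array. A value table of the authors, on a log2 scale and with 1 distribution for every array (median 7.93), served as an alternative; no source here names its program. Per the labels' protocols, cDNA of few cells was amplified by PCR before labelling.

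Control spots (3671 of 62976) were left out, and 248 values of spots marked as non-uniform were treated as missing (saturated spots: 0). Spots of a probe were averaged. Each processed signal was divided by the 75th percentile of its array and put on the log2 scale. Groups were fitted as means over all 24 arrays with limma 3.58.1 in R 4.3.3 (lmFit, eBayes), adjusted by Benjamini-Hochberg over all genes tested, and called at an adjusted p under 0.05. Genes entered the test if some group had their probe well above background on each of its arrays. The fit was tested on simulated data. Groups came from the titles and genotype labels, and replicates were compared only as far as the labels name them.

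Named genes were the 2 highest and 2 lowest moderated t per comparison, the 8 highest F, the 3 narrowest and 3 widest SDs among genes well above background throughout, the 3 genes whose probes, both well above background on all arrays, differed most in thymocytes against FL B cells, and of each list the called genes or else the highest F; others are named for the values printed beside them. The mitoribosomal genes and the gene lists were chosen with earlier results of these data known. Alternatives were median scaling, quantile scaling, normexp background (offset 50), the authors' matrix, slide as a block, only the compared groups, arrays of 1 title number averaged, no filter, the mean over a gene's probes, and leaving out each array.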

Additional observations from a re-analysis of the deposited data

Results flagged for a closer look

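Dixon's ratio at 95% was applied to tg DP, the 1 group with 4 samples. Of the 28 named mitoribosomal genes, 4 had a sample farther from the others than it allows. Among all 76 genes 6 had one, where chance gives about 1 in 20 if samples are independent. The named genes were picked from these same values, so that rate does not apply to the 4 of 28. Samples 6, 6A and 6B share a title number and may not be independent. Mrps5 was at -3.71 in tg DP 6A and between -7.60 and -6.97 in the others. Mrpl37 was at -1.23 in tg DP 6A and between -2.89 and -2.67 in the others. Mrpl17 was at 1.18 in tg DP 6B and between -0.08 and 0.10 in the others. Mrpl52 was at -5.24 in tg DP 4 and between -2.13 and -1.73 in the others. The median over the 76 genes was -1.11 on tg DP 6A and between -1.32 and -1.31 on the other 3 arrays.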

How the results depend on the processing

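No mitoribosomal gene was called under any alternative, except when single arrays were left out: 0 to 9 in tg B against FL IgM- (9 without tg B 22, 1 without FL IgM+ 21) and 0 to 5 in the test over all groups (5 without tg B 22). Only in tg B against FL IgM- and in SP8 against DP did the median over the genes move by more than the spread between samples. Of the medians given next for left-out arrays, -0.22 and 0.074 stayed within that spread. In tg B against FL IgM- it was -0.10 with arrays scaled to their median, -0.16 with normexp, and -0.76 to -0.22 when single arrays were left out, against -0.40; it stayed below the median of all genes, which was 0.09 and -0.03 in the first 2 cases. In SP8 against DP it was -0.059 to 0.074 when single arrays were left out. Mrpl9 in tg B against FL IgM- turned to -0.35 with the mean over its probes, and Mrps22 in thymocytes against FL B cells to -3.39 with the slide as a block. The cause was not tested. Leaving out 1 of the 2 tg B arrays leaves a lone sample, assumed to vary like the other groups. No paired analysis was possible because the groups share no replicate numbers. Dim probes varied most, so differences of genes near background are the least certain.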
